A study of Sus scrofa with 16 samples.

Results

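The RNA of 9 genes that mature oligodendrocytes use to build and hold myelin was looked up in the hippocampus of preterm pigs: MBP, MOG, MAG, MOBP, CNP, CLDN11, UGT8, MAL and OPALIN. They were matched through pig gene IDs, and 4 of the 9 were found. These were MOG (ENSSSCG00000001248), CNP (ENSSSCG00000017420), CLDN11 (ENSSSCG00000011747) and OPALIN (ENSSSCG00000010506). The other 5 could not be followed. The IDs of MBP, MAG and UGT8 were not among those analysed here, and no ID was at hand for MOBP and MAL. MOG had 2 distinct entries under its ID, named here entry 1 and entry 2, so the 4 genes gave 5 entries of 22815 in all. All 5 averaged 0.5 FPKM or more and were tested among the 13590 entries that did.

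The samples were left hippocampi of 16 preterm, caesarean-delivered pigs of both sexes, fed human donor milk and killed about a week after birth. Pigs labelled noNEC (n = 5) had no macroscopic gut lesions, pigs labelled coNEC (n = 5) had severe necrotizing enterocolitis (NEC) lesions of the colon only, and pigs labelled siNEC (n = 6) had severe lesions of the small intestine, whether or not the colon was also affected. The lesions arose spontaneously, so the groups were formed by diagnosis and not by assignment, and the litter of each pig is not in the labels. There were 3 males and 2 females in the noNEC and in the coNEC group, and 3 of each in the siNEC group. The comparisons ask whether gut lesions, and their place in the gut, go with the level of myelin gene RNA in the hippocampus.

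Oligodendrocytes mature from dividing precursors that carry the PDGF receptor PDGFRA, and switch on the myelin genes when they stop dividing and wrap axons. The membrane they lay down is rich in galactolipids, which the enzyme UGT8 makes, and MBP holds its layers together. Around birth the hippocampus is still early in this process, and levels of these RNAs rise as more cells mature. In whole tissue, fewer mature oligodendrocytes and less RNA per cell cannot be told apart.

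Values are FPKM, fragment numbers scaled by transcript length and by the fragments of the library, as the authors deposited them. The table holds no read counts, so the depth behind each value is unknown. FPKM summed to between 544629 and 645197 in 14 pigs, to 864931 in noNEC pig 230-15 and to 823320 in siNEC pig 223-15. These 2 pigs also correlated least with the others, with median r of 0.902 and 0.933, and results are given without them where this matters. The tissue carried hippocampal and neuronal genes in every pig, with LHX2 at 53.9 to 73.5 FPKM and SLC17A7, the glutamate transporter of excitatory terminals, at 490 to 679 FPKM.

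The myelin genes spanned a wide range of levels. CLDN11 and CNP were the highest of the 5 entries, with 356 ± 84.8 and 305 ± 74.5 FPKM (SD, n = 16). MOG entry 1 and OPALIN were lower, with 51.1 ± 15.4 and 43.9 ± 17.6 FPKM. CNP exceeded MOG entry 1 in 16 of 16 pigs, by 4.0 to 9.98 times. Neighbours within a level were not separated: CLDN11 was above CNP in 14 of 16 pigs and MOG entry 1 above OPALIN in 12 of 16. MOG entry 2 was the lowest, at 3.59 ± 2.7 FPKM (SD, n = 16), and varied most between pigs, by 8.28 times from the lowest to the highest, against 2.06 times for CLDN11.

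**Figure D1:**
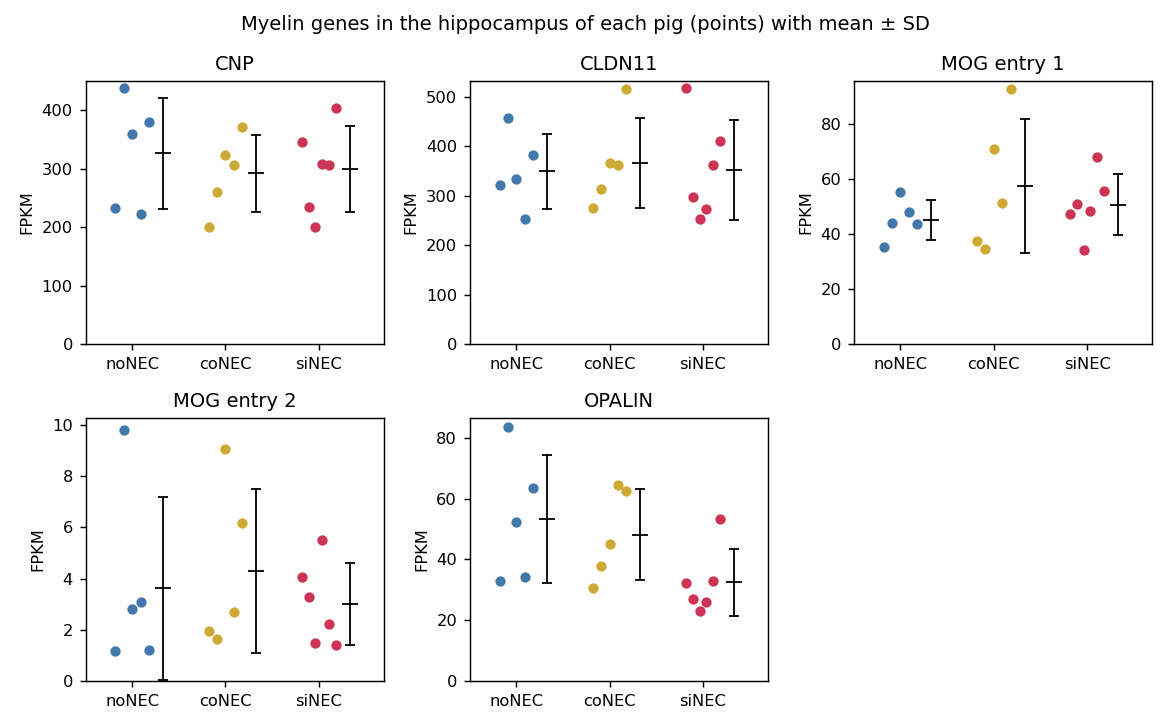
FPKM of the 5 myelin gene entries (y axis, a separate scale for each panel) in each pig (points), by group (x axis), with the group mean and SD as black bars. The groups overlap in every panel, and 4 of 6 siNEC pigs lie below all noNEC pigs for OPALIN.

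CNP is a cyclic nucleotide phosphodiesterase of the uncompacted myelin compartments and an early marker of the cells that make myelin. Its values were 233, 438, 358, 222 and 379 FPKM in the noNEC pigs and 200, 259, 323, 306 and 371 FPKM in the coNEC pigs. In siNEC pigs they ran from 200 to 404 FPKM with a median of 307. The 3 groups covered nearly the same range. The difference between siNEC and noNEC pigs was -0.11 on the log2(FPKM + 0.5) scale (SE 0.23, 95% interval -0.61 to 0.39), and between coNEC and noNEC pigs -0.14 (SE 0.23, interval -0.64 to 0.37).

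CLDN11 is the claudin that forms the tight junctions between myelin layers. It measured 321, 456, 333, 252 and 383 FPKM in noNEC pigs, 275, 314, 367, 362 and 516 FPKM in coNEC pigs, and 252 to 519 FPKM with a median of 330 in siNEC pigs. Again the groups overlapped throughout. siNEC and noNEC pigs differed by -0.005 (log2, SE 0.21, interval -0.46 to 0.45), or a fold interval of 0.726 to 1.37.

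MOG is a glycoprotein of the outermost myelin surface and appears late in myelination. Entry 1 measured 35.3, 43.9, 55.4, 47.9 and 43.8 FPKM in noNEC pigs, and in siNEC pigs 34.1 to 67.9 FPKM with a median of 49.7. coNEC pigs were the most uneven group, with 37.7, 34.4, 70.8, 51.4 and 92.6 FPKM, a coefficient of variation of 42.4% against 16.2% in noNEC pigs. The highest value, in pig 552-14, was from a pig that was also among the 2 highest in CLDN11. The log2 differences were 0.15 (SE 0.17) for siNEC and 0.25 (SE 0.26) for coNEC against noNEC, and leaving out pig 552-14 took the latter to 0.06. Entry 2 ran from 1.18 to 9.80 FPKM in noNEC, 1.65 to 9.04 in coNEC and 1.41 to 5.49 in siNEC pigs, and its differences had the widest intervals, from -1.0 to 1.0 for siNEC against noNEC.

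OPALIN encodes a transmembrane glycoprotein found in mature oligodendrocytes. The study picked it on RNA of these same pigs, so its values here are no independent evidence of its direction. It measured 33, 83.6, 52.3, 34.2 and 63.5 FPKM in noNEC pigs and 30.7, 37.8, 44.9, 64.7 and 62.7 FPKM in coNEC pigs. In siNEC pigs it measured 32.2, 27.0, 23.0, 25.9, 33.1 and 53.4 FPKM. Pig 547-14 was the only siNEC pig above 33.1 FPKM, and 4 of 6 siNEC pigs were below every noNEC pig, a pattern that 2.35% of all tested entries reached or exceeded. Against coNEC, 3 of 6 siNEC pigs were below every pig of that group, which 15.6% of tested entries reached or exceeded.

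The log2 difference of OPALIN between siNEC and noNEC pigs was -0.67 (SE 0.27, interval -1.27 to -0.08), or 0.626 times the noNEC level (interval 0.416 to 0.944). The two-sided exact permutation test gave p = 0.0476, where the smallest p that 6 against 5 pigs allow is 0.00216. Adjusted over all tested entries, the limma p was 1.0. Between siNEC and coNEC pigs the difference was -0.56 (SE 0.24, interval -1.08 to -0.04), with an exact permutation p = 0.0779 and an adjusted limma p of 0.867. coNEC and noNEC pigs differed by -0.11 (SE 0.29, interval -0.75 to 0.53). Without the noNEC pig 230-15, which had the highest OPALIN value, the difference between siNEC and noNEC pigs shrank to -0.49.

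No myelin gene passed an adjusted limma p under 0.2 in any of the 3 comparisons. This threshold was passed by 0.00736% of tested entries between siNEC and noNEC pigs, 0.00736% between coNEC and noNEC pigs and 0.0147% between siNEC and coNEC pigs. The cutoff of 0.2 is the study's, but the study applied it to q of another test, Cuffdiff. By that test the study did list OPALIN as lower in siNEC than in noNEC pigs. Its qPCR in a larger cohort also found OPALIN lower in siNEC pigs. Whether that cohort included the pigs sequenced here is not stated. An unadjusted limma p under 0.05 was reached by 1 of the 4 genes, OPALIN, lower in siNEC pigs against noNEC and against coNEC pigs, and by none between coNEC and noNEC pigs. The exact permutation tests above gave OPALIN under 0.05 only against noNEC. Of all tested entries, 2.61% reached an unadjusted limma p under 0.05 in either direction for siNEC against noNEC. The share was 5.64% for siNEC against coNEC and 3.44% for coNEC against noNEC. The median log2 difference of the 4 genes was -0.06 for siNEC against noNEC (all entries 0.02), -0.02 for coNEC against noNEC (all entries 0.01) and -0.09 for siNEC against coNEC. Both NEC groups were compared with the same noNEC pigs, so these comparisons are not independent of each other.

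**Figure D2:**
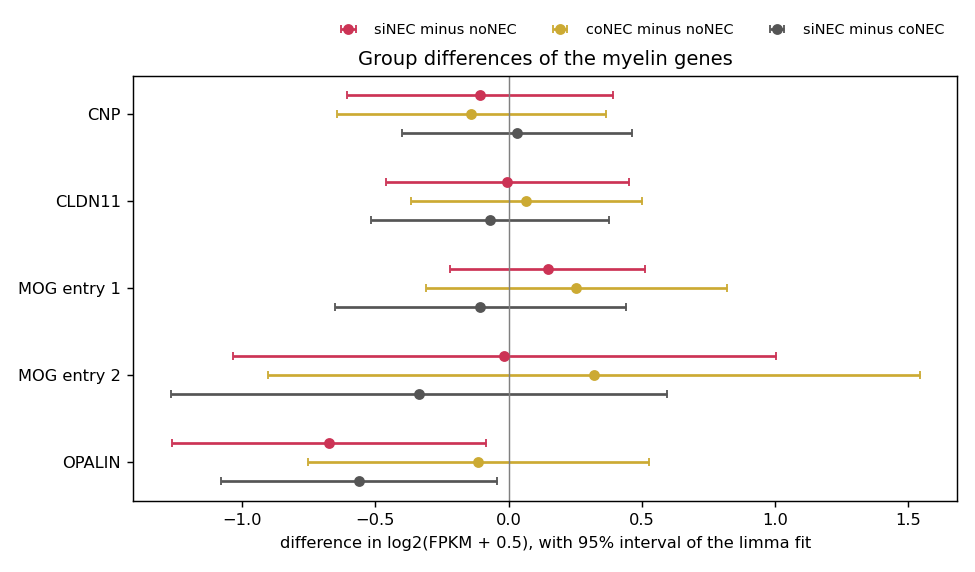
Difference in log2(FPKM + 0.5) between groups (x axis) for each myelin entry (y axis), as the limma estimate with its 95% interval; colours mark the 3 comparisons. All intervals span 0 except those of OPALIN in the comparisons of siNEC with noNEC (-1.27 to -0.08) and with coNEC (-1.08 to -0.04), neither of which passed adjustment over all entries.

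The pigs' numbers fall into 3 ranges, and the labels do not say what they mark. OPALIN was lower in siNEC than in noNEC pigs in each range. For numbers 223 to 231, the means were 27.4 FPKM (n = 3) and 58.3 FPKM (n = 2), for 246 to 255, 25.9 and 52.3 FPKM (n = 1 each), and for 539 to 552, 43.2 and 48.9 FPKM (n = 2 each). The log2 differences were -0.94, -1.0 and -0.15, so the smallest was in pigs 539 to 552, whose labels carry the suffix 14. Against coNEC the same ranges gave -0.32, -0.78 and -0.59. By sex, OPALIN was lower in siNEC than in noNEC females (28.4 against 42.6 FPKM) and males (36.5 against 60.4 FPKM). The limma interaction with sex had an adjusted p of 0.888. The noNEC males include pig 230-15, and the splits by range and sex were not repeated without it. Across all pigs and with group as covariate, OPALIN was 0.33 log2 units higher in males (SE 0.22, interval -0.13 to 0.79, adjusted p of 1.0 by limma). No myelin gene differed between the sexes at an adjusted p under 0.2, which 0.0515% of tested entries did.

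Several of the myelin genes varied together over the 16 pigs. CNP and CLDN11 had a Pearson r of 0.807 (permutation p = 0.00021, 0.0021 when adjusted over 10 pairs), with a Spearman rho of 0.818 (permutation p = 0.00022, adjusted 0.0022). CNP and OPALIN had r = 0.773 (permutation p = 0.00048, adjusted 0.0024) and rho = 0.688 (permutation p = 0.00398, adjusted 0.0199). With the 2 pigs farthest from the median of the first gene left out, these r were 0.748 and 0.720.

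CLDN11 and OPALIN had r = 0.653 (permutation p = 0.00697, adjusted 0.0232) and rho = 0.626 (permutation p = 0.0111, adjusted 0.037), and r rose to 0.849 without pigs 223-15 and 552-14. These 3 of the 10 pairs passed an adjusted permutation p of 0.05 for r. MOG entry 1 had r of 0.518 with CNP and 0.515 with CLDN11, each with an adjusted permutation p of 0.0667, but 0.364 with OPALIN. The 2 MOG entries had r = 0.525 with each other (permutation p = 0.036, adjusted p = 0.0667), and this fell to 0.264 without pigs 552-14 and 255-15.

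Taking out the group means raised the r of CNP and OPALIN to 0.901 and that of CLDN11 and OPALIN to 0.767, while CNP and CLDN11 changed little, to 0.832. Taking out the means of the 3 number ranges left them at 0.759, 0.640 and 0.877. Within the 6 siNEC pigs alone, CNP and OPALIN had r = 0.837 (exact permutation p = 0.0333) and CNP and CLDN11 0.760 (exact permutation p = 0.0875).

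In noNEC pigs OPALIN amounted to 14.1, 19.1, 14.6, 15.4 and 16.8% of CNP in the same pig, and in coNEC pigs to 15.4, 14.6, 13.9, 21.1 and 16.9%. In siNEC pigs it amounted to 9.31, 11.5, 11.5, 8.43, 10.8 and 13.2%. All 6 siNEC pigs were thus below all 10 others, although neither gene alone separated the groups (0.0368% of entries alone placed all 6 siNEC pigs below every noNEC pig). The mean log2 ratio differed by -0.57 from noNEC and by -0.60 from coNEC pigs, and coNEC pigs differed from noNEC pigs by 0.03. OPALIN was the 1 entry of 13590 (0.00736%) whose ratio to CNP placed all 6 siNEC pigs below every noNEC pig, and 8 entries (0.0589%) had all 6 above. All 6 were below every coNEC pig in the ratios of 0.0294% of entries. This ratio was examined after the values were seen, for a gene that the study had picked on these pigs, so no test is given.

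Other denominators gave the same direction with some overlap. These ratios share OPALIN's own values, so they are no separate support. Relative to CLDN11, 5 of 6 siNEC pigs were below every noNEC pig (0.272% of entries did as much) and 5 of 6 below every coNEC pig (0.103% of entries), with means of 9.33 ± 2.16% (SD, n = 6), 14.9 ± 3.09% (n = 5) and 13.1 ± 2.72% (n = 5) in siNEC, noNEC and coNEC pigs. Relative to MOG entry 1 it was 5 of 6 below every noNEC pig (1.15% of entries) and 3 of 6 below every coNEC pig (1.11% of entries). Among the other genes no ratio did this: CNP over CLDN11, for example, placed 1 of 6 siNEC pigs below and 1 above all noNEC pigs.

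**Figure D3:**
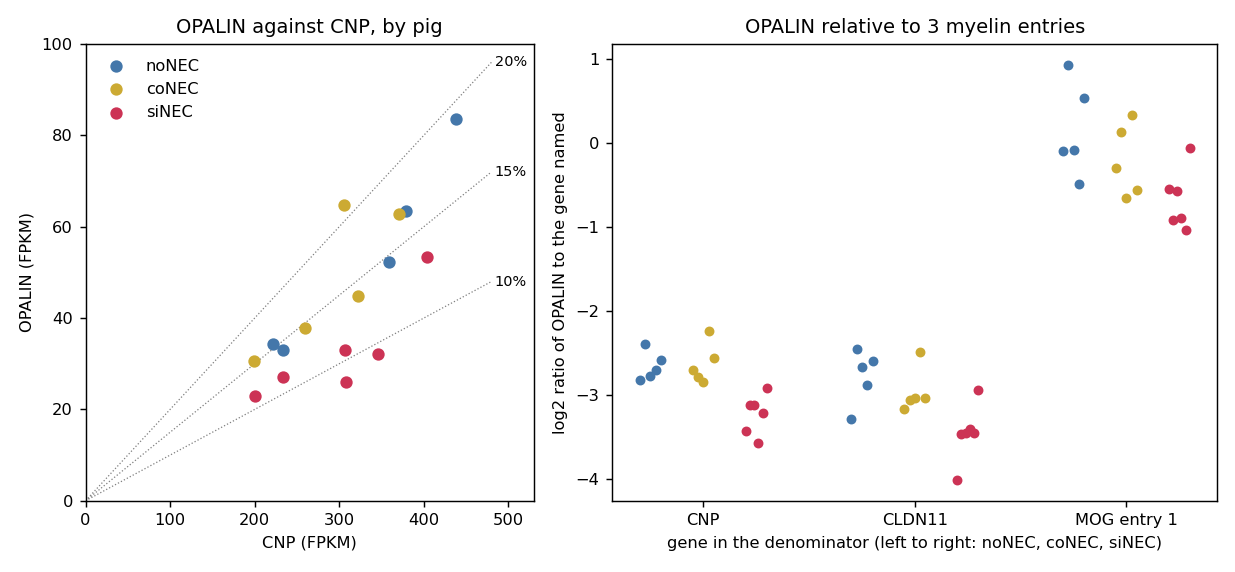
Left, OPALIN (y axis, FPKM) against CNP (x axis, FPKM) in each pig, with dotted lines where OPALIN is 10, 15 and 20% of CNP; right, log2 ratio of OPALIN to CNP, CLDN11 and MOG entry 1 by pig, with the groups side by side. The 6 siNEC pigs lie at 8.43 to 13.2% of CNP, below the 13.9 to 21.1% of the other 10 pigs.

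To see which other genes follow the myelin genes from pig to pig, each named entry was correlated with the mean z score of the 4 genes. This mean was highest in coNEC pig 552-14 and noNEC pig 230-15 and lowest in siNEC pig 226-15 and coNEC pig 225-15. From high to low, siNEC pig 547-14 ranked 3 and noNEC pig 540-14 ranked 14 of 16. Each group thus came near both ends. The 10 most alike genes were ZFP57 (r = 0.944), CLCA2 (0.926), PLLP (0.912), ADAMTS4 (0.904), MCAM (0.902), FA2H (0.873), BCAS1 (0.860), TMEM125 (0.860), ZDHHC9 (0.859) and CSRP1 (0.845), over 16 pigs. CLCA2 stands here for the less abundant of its 2 entries, at only 1.29 to 2.97 FPKM, and ZDHHC9 for the more abundant of its 2. PLLP is plasmolipin, a myelin membrane protein, FA2H the enzyme that hydroxylates the fatty acids of myelin lipids, and BCAS1 marks oligodendrocytes that are starting to myelinate. ZFP57, a zinc finger gene, is the neighbour of MOG in the RefSeq annotation of Sscrofa11.1 and is one of the genes with 2 entries under its ID. Its r was 0.759 with MOG entry 1, 0.883 with CNP and 0.782 with CLDN11, and whether reads of the neighbouring genes were kept apart was not tested. All 16 pigs share one table, and these r are descriptions. None of the 10 passed an adjusted limma p of 0.2 in any comparison. The 10 genes were picked by likeness to a mean that includes OPALIN. Their own log2 differences between siNEC and noNEC pigs were -0.28 to 0.02. Lower ratios of OPALIN to them thus follow largely from OPALIN's own values and are no separate support. Relative to each of these 10 genes, OPALIN was lower in siNEC pigs, with mean differences of the log2 ratio from -0.71 to -0.39 against noNEC and 3 to 6 of 6 siNEC pigs below every noNEC pig. It was 6 of 6 relative to ZFP57, PLLP and ADAMTS4, which 0.0736%, 0.00736% and 0.0147% of all tested entries matched. It was 5 of 6 relative to CLCA2 (0.103% of entries did as much or more), BCAS1 (0.338%), TMEM125 (0.118%) and CSRP1 (0.272%). For FA2H it was 4 of 6 (0.353%), and for MCAM and ZDHHC9 3 of 6 (1.88% and 1.52%).

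**Figure D4:**
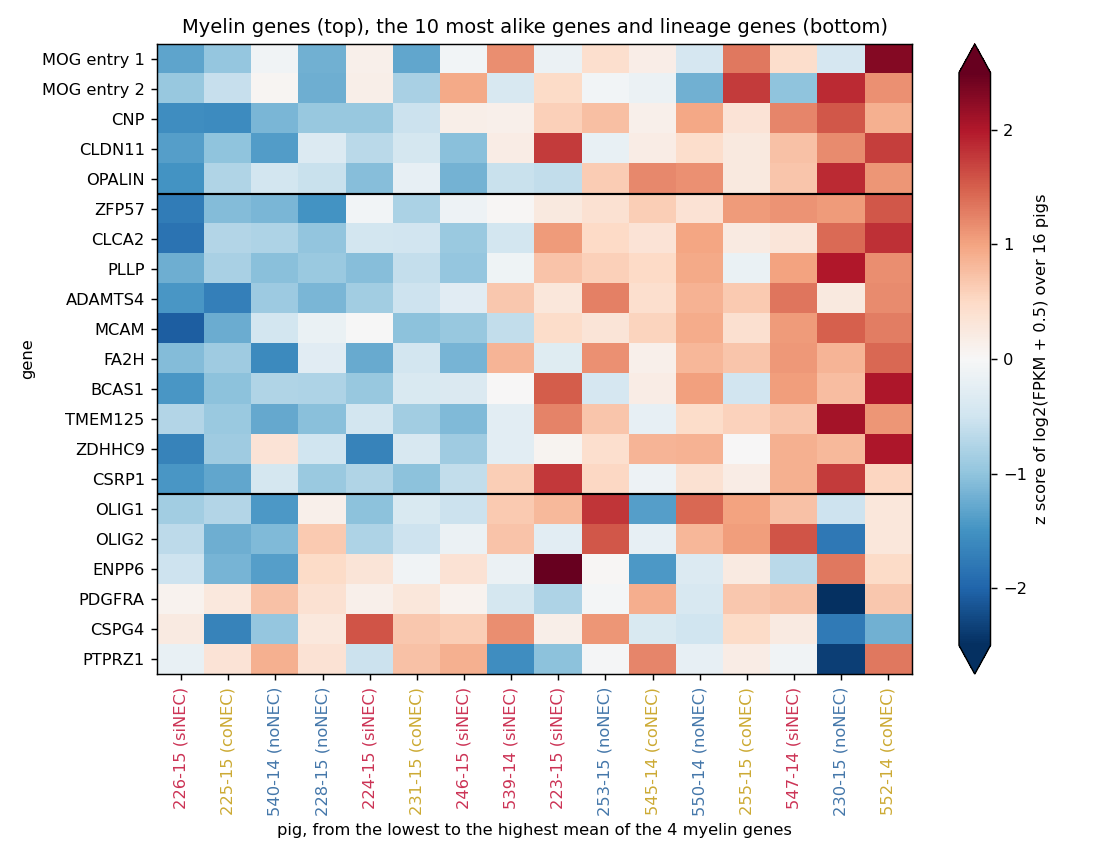
z scores of log2(FPKM + 0.5) over the 16 pigs (colour) for the myelin genes, the 10 most alike genes and 6 lineage genes (rows), with pigs (columns) ordered by the mean of the 4 myelin genes. The upper blocks run from low to high together, the lowest block less evenly, with PDGFRA and PTPRZ1 lowest in pig 230-15. Pigs of all 3 groups are found near both ends.

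Of 30 other myelin genes listed, 18 were found and 17 tested, and their mean log2 level followed that of the 4 genes with r = 0.852 over 16 pigs. None passed an adjusted p of 0.2 in any comparison. Their median log2 difference was -0.04 for siNEC against noNEC pigs, with 8 of 17 higher (7309 of 13590 over all entries). It was 0.07 for coNEC against noNEC, with 11 of 17 higher (7078 of 13590 over all entries). For siNEC against coNEC it was -0.11, with 15 of 17 lower, where the median of all entries was near 0 and 6782 of 13590 entries were lower. Many genes of a list vary together over the same pigs, so these counts, and those of the lists below, are not of independent genes. The smallest p between siNEC and noNEC pigs were those of CA2, GJB1, TSPAN2 and TMEM63A. CA2, a carbonic anhydrase, had 26.5 ± 19.4 FPKM (SD, n = 6) in siNEC and 13.4 ± 3.54 (n = 5) in noNEC pigs, and had r = -0.236 with the mean of the myelin genes (-0.603 without pigs 223-15 and 230-15). GJB1, the connexin that couples myelin layers, had 2.91 ± 1.2 and 4.60 ± 1.88 FPKM in the same groups. TSPAN2 differed by 0.22 (log2, SE 0.20) and TMEM63A by -0.14 (SE 0.15). MYRF, the transcription factor that switches on the myelin genes, had no ID at hand.

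The lipids of myelin were followed through 11 genes that make, modify or break down ceramide and the lipids built on it, without UGT8. Of these, 9 were lower in siNEC than in noNEC pigs at a median of -0.03, where 6281 of all 13590 entries were lower. Against coNEC pigs 10 were lower in siNEC pigs at a median of -0.12, where 6782 of 13590 entries were lower. In coNEC against noNEC pigs 9 were higher at a median of 0.06, where 7078 of 13590 entries were higher. None passed adjustment. FA2H, which was also among the most alike genes, differed by -0.19 (SE 0.22) between siNEC and noNEC pigs, UGCG, which makes glucosylceramide, by -0.14 (SE 0.13), SMPD1, a sphingomyelinase that breaks down sphingomyelin, by -0.06 (SE 0.21) and GAL3ST1, which adds the sulfate of sulfatide, by -0.07 (SE 0.19). Genes of the node and paranode, where myelin loops meet the axon, numbered 9. Their mean level had r = -0.06 with that of the myelin genes over 16 pigs, but 0.247 without pig 230-15 and 0.797 without pigs 223-15 and 230-15. All 9 were lower in siNEC than in coNEC pigs (median -0.16), where 6782 of all 13590 entries were lower. In coNEC against noNEC pigs 8 were higher (median 0.18), where 7078 of all 13590 entries were higher. These counts include pigs 223-15 and 230-15, and none of the 9 genes passed adjustment. NFASC differed by 0.41 (SE 0.39) between siNEC and noNEC pigs, NRCAM by 0.11 (SE 0.12), KCNA1 by -0.17 (SE 0.18) and CNTN1 by -0.11 (SE 0.13).

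How the earlier stages of the lineage followed the myelin genes depended on 1 pig. Over 12 lineage genes tested of 21 listed, the mean level had r = 0.211 with that of the myelin genes over 16 pigs, and 0.690 without noNEC pig 230-15. Of the 12 genes, 7 had an r above 0 over 16 pigs, led by BCAS1, which belongs to this list too, with OLIG1 (r = 0.526), FYN (0.445) and OLIG2 (0.390) next. The precursor genes PDGFRA (r = -0.264), CSPG4 (r = -0.205) and PTPRZ1 (r = -0.195) were among the 5 below 0. Without pig 230-15 their r were 0.067, -0.063 and 0.024, and that of OLIG2 was 0.663. OLIG2, the transcription factor of the whole lineage, had 49.9 ± 14.9 FPKM (SD, n = 5) in noNEC, 47.1 ± 9.16 (n = 5) in coNEC and 49.4 ± 10.7 (n = 6) in siNEC pigs. PDGFRA had 13.1 ± 5.90, 18 ± 1.99 and 14.4 ± 2.97 FPKM, and its low noNEC value of 3.67 FPKM came from pig 230-15. TCF7L2, which acts in newly formed oligodendrocytes, differed by 0.28 (SE 0.14) between siNEC and noNEC pigs, CSPG4 by 0.27 (SE 0.15) and ITPR2 by 0.22 (SE 0.30), none past adjustment. Of the 12 genes, 8 were higher in siNEC than in noNEC pigs, with a median of 0.08, where 7309 of all 13590 entries were higher. SOX10 and GPR17 were not among the IDs analysed here.

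Markers of other cells were set beside the myelin genes. Over the 16 pigs, the mean level of 4 endothelial genes (PECAM1, FLT1, KDR and TEK) had r = -0.706 with the mean of the myelin genes, that of 5 astrocyte genes r = -0.436, 7 neuronal genes 0.0918 and 4 microglial genes -0.0935. Without pigs 223-15 and 230-15 these r were -0.730, -0.672, -0.119 and -0.377 in the same order. The single endothelial genes differed, with r of -0.642 (PECAM1), -0.602 (FLT1), -0.687 (TEK) and -0.293 (KDR) over 16 pigs. KDR had r = -0.052 without pigs 223-15 and 230-15. The summed FPKM of the endothelial genes was 11.4 to 30.7 in noNEC, 19.5 to 26.7 in coNEC and 19.3 to 34.9 in siNEC pigs, and that of the neuronal genes 2124 to 3138, 2335 to 2479 and 2075 to 2717. The astrocyte genes summed to 1003 to 1199, 1042 to 1153 and 948 to 1584 FPKM, and the microglial genes to 44.0 to 99.8, 46.3 to 75.2 and 37.8 to 113 FPKM. The 3 erythroid genes, led by HBB, summed to 85.6 to 1298 FPKM in noNEC, 72.3 to 329 in coNEC and 22.3 to 248 in siNEC pigs. None of these lists had a gene past an adjusted limma p of 0.2, and their part in the OPALIN values was not tested. By Cuffdiff, the study did list HBB as lower in both NEC groups than in noNEC pigs.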

How the data were processed

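Hippocampal RNA of 16 pigs was sequenced by the authors, with reads aligned to Sscrofa10.2 by TopHat2 2.1.1 and quantified with Cufflinks 2.2.1, per the labels. The deposited values are FPKM per gene ID and pig, from 1 table of 24594 rows and 21956 IDs. They were used without rescaling. Identical rows (1779) were dropped, and symbols were joined by ID for 11001 IDs. No read counts are in the table, so depth, counting error and detection limits are unknown.

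The 13590 entries averaging 0.5 FPKM or more were tested pairwise on log2(FPKM + 0.5) with limma 3.58.1 (lmFit and eBayes with a trend; R 4.3.3), Benjamini-Hochberg adjustment over all tested entries and a threshold of 0.2. The fit was tested on simulated data. Fold changes on this scale understate changes of low genes. Single genes were compared by two-sided exact permutation tests of the mean log2 value, and correlations by 100000 permutations (two-sided), with adjustment over the 10 pairs of the 5 entries. Each gene of a list was represented by its most abundant entry, except that both MOG entries are given. Python 3.11.15, numpy 2.4.6, pandas 2.3.3, scipy 1.17.1 and matplotlib 3.10.9 were used.

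Groups and sex were taken from the labels, which number no replicates and do not name litters. The p-values measure the spread between pigs taken as independent, and how shared litters affect them is unknown. The members and lists were chosen with earlier results of these data known. The genes named are all members, up to 4 per list with the smallest limma p between siNEC and noNEC, some lineage genes fixed by name, and the 10 genes most like the members by Pearson r. QKI, PTPRZ1 and other genes outside this rule that are named were chosen after their values were seen. Alternatives were pseudocounts of 0.1 and 1, no filter, a minimum mean of 1 FPKM, median-ratio rescaling, 1 fit for all groups, covariates for sex, suffix and number range, eBayes without trend or robust, array weights, a threshold of 0.05, and leaving out each pig or pigs 223-15 and 230-15. The ratios of OPALIN, and correlations of the lists without pigs 230-15 and 223-15, were added after the data were seen. Promoter and protein sequences were not used here, and results for some genes are not reported here.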

Additional observations from a re-analysis of the deposited data

Results flagged for a closer look

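In 15 groups of 5 or 6 pigs (5 entries in 3 groups), 2 values lay far from the rest of their group by Dixon's test at its 95% level, which chance does in about 1 group in 20. noNEC pig 230-15 had 9.80 FPKM for MOG entry 2, where the other noNEC pigs had at most 3.07 FPKM. siNEC pig 547-14 had 53.4 FPKM for OPALIN, where the other siNEC pigs had at most 33.1 FPKM. Without pig 547-14, the log2 difference of OPALIN between siNEC and noNEC pigs was -0.83, and between siNEC and coNEC pigs -0.71.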

How the results depend on the processing

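The number of myelin genes past the adjusted p of 0.2 was 0 in each of the 3 group comparisons and between the sexes under every alternative run, and also at 0.05. The direction of OPALIN held against noNEC pigs (log2 -0.83 to -0.49, adjusted limma p 0.871 to 1.0) and against coNEC pigs (-0.71 to -0.44, 0.269 to 1.0). Over all entries, calls ran from 1 to 4 in both comparisons with noNEC and from 1 to 201 between siNEC and coNEC pigs, with 201 under array weights, 12 without pig 547-14 and 2 as reported.

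Small differences changed sign. Under array weights, MOG entry 2 between siNEC and noNEC was 0.23, OPALIN between coNEC and noNEC 0.012 and CNP between siNEC and coNEC -0.11. Without pigs 223-15 and 230-15 these values were 0.30, 0.070 and -0.017, and with a pseudocount of 0.1 the first was 0.0073. The cause was not tested. Leaving out 1 pig at a time, the differences between siNEC and noNEC ran from -0.25 to 0.40 (MOG entry 2), -0.23 to 0.011 (CNP) and -0.13 to 0.10 (CLDN11). Those between coNEC and noNEC ran from -0.065 to 0.17 (CLDN11) and -0.26 to 0.070 (OPALIN). Those between siNEC and coNEC ran from -0.26 to 0.090 (MOG entry 1), -0.10 to 0.14 (CNP) and -0.19 to 0.060 (CLDN11).

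The median r of the 6 pairs of the 4 genes was 0.59, and 0.47 to 0.74 under the alternatives. The log2 ratio of OPALIN to CNP differed by -0.64 to -0.47 between siNEC and noNEC pigs. Depth is unknown, so precision rests on the number of pigs alone.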

Other observations

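MOG entry 2 differed in direction between the sexes. In siNEC females it had a mean of 4.27 FPKM (n = 3) against 2.0 FPKM in noNEC females (n = 2), and in siNEC males 1.70 FPKM (n = 3) against 4.69 FPKM in noNEC males (n = 3), a group that holds pig 230-15. The interaction was -1.86 log2 units (SE 0.83), with an adjusted p of 0.439 by limma, and MOG entry 1 had an interaction of 0.02 (SE 0.37). Of the 80 genes tested on the other lists, 3 (3.75%) had an unadjusted limma p under 0.05 between siNEC and noNEC pigs, against 2.61% of all tested entries. Between coNEC and noNEC pigs 0 of the 80 did, against 3.44% of all tested entries. Between siNEC and coNEC pigs 10 of the 80 (12.5%) did, against 5.64% of all tested entries in either direction. The 8 that were lower in siNEC pigs were PTPRZ1 (log2 difference -0.35, SE 0.12), ITPR2 (-0.35, SE 0.12), PDGFRA (-0.33, SE 0.14), CNTN1 (-0.27, SE 0.10), SPTLC1 (-0.25, SE 0.09), QKI (-0.25, SE 0.11), UGCG (-0.24, SE 0.10) and SYT1 (-0.23, SE 0.09). The 2 that were higher were PECAM1, an endothelial adhesion molecule (0.48, SE 0.18), and NEUROD1, a neurogenic transcription factor (0.32, SE 0.12). Their adjusted p by limma were 0.851 to 0.867.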
